A study of Oryza sativa with 32 samples.

Results

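The 100 genes described here were the rice panicle transcripts that stood highest late in the light period, at 10.5 h after dawn, and fell the furthest at other times. They were chosen from 37829 gene identifiers by their measured levels. A gene needed a mean of at least 10 CPM (counts of a gene per M counts of its library, M for mega) over 32 libraries, the highest of its 8 time means at 10.5 h, and no overlap between the libraries of 10.5 h and those of its lowest time. Of 14622 genes with that mean, 1100 were highest at 10.5 h and 725 of them passed the overlap condition. After 5 genes were left out by the rule (the clock genes GI, FKF1, LUX and PRR1 and the catalase gene CATA), 720 candidates remained. They were ranked by log2 of the highest time mean plus 1 CPM over the lowest time mean plus 1 CPM, and the first 100 were taken. The level at 10.5 h, the lowest time and the fold between them therefore chose these genes and are given as description, without a test. Tests were run between other times, whose means also entered the choice, since each had to lie below that of 10.5 h.

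In plants, a circadian clock and the daily course of light and temperature both set when a transcript is abundant, and many transcripts recur at the same time each day. The clock is a set of factors that repress and activate one another in turn, so that morning and evening genes alternate. The rice panicle is the flowering head, which bears the spikelets with their glumes, anthers and pistils, and it is green and photosynthetic as well as reproductive.

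Untreated plants of IR64, an Oryza sativa of the indica group that the labels call a land variety, were raised in the dry season on a field plot at IRRI in the Philippines. Panicles were taken at 50% flowering at dawn, at 3.5, 7 and 10.5 h after dawn, at dusk, for which the labels give no hour, and at 14, 17.5 and 21 h after dawn. These hours come from the sample labels. The description of the series speaks of roughly 3 h between samplings, so distances in hours are uncertain. Each of the 8 times had 4 poly(A)-selected, strand-marking RNA libraries. Whether libraries of 1 time are separate plants is not stated, so the p-values here speak only of the spread among libraries, and that spread can be technical.

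Between 10.8 and 43.9 M counts were assigned to genes in each library. Of the 3 genes taken as markers of mature pollen (MADS62, MADS63 and MADS68), all were above 0 in every library except MADS63 in 1 library of 17.5 h. Their summed level ran from 1.39 to 28.7 CPM at dawn, 7.40 to 41.6 CPM at 3.5 h, 10.9 to 35.3 CPM at 7 h and 1.39 to 83.6 CPM at 10.5 h. It ran from 6.14 to 66.1 CPM at dusk, 6.04 to 61.7 CPM at 14 h, 2.36 to 18.4 CPM at 17.5 h and 1.90 to 24.9 CPM at 21 h. The summed level of 3 tapetum genes (CYP703A3, UDT1 and EAT1, of the layer that lines the anther and feeds the pollen) lay between 2.04 and 12.5 CPM in the 32 libraries, and EAT1 was at 0 in 4 of them. The identity of the 3 pollen genes was taken from general knowledge and was not checked by a table. Replicate 3 of 10.5 h, replicate 4 of dawn and replicate 3 of 21 h had the lowest correlations with the other libraries of their time, with r of 0.806, 0.718 and 0.777. These 3 libraries were also the ones with a pollen sum under 2 CPM. The part of pollen content in the results below was not tested.

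The 100 genes together rose and fell as a broad afternoon wave. They held 0.132% of the counts of a dawn library on average, 0.299% at 3.5 h, 1.03% at 7 h and 2.00 ± 0.323% at 10.5 h (SD, n = 4). At dusk they held 1.41%, at 14 h 0.667%, at 17.5 h 0.409% and at 21 h 0.149%. In the 4 libraries of 10.5 h the share was 1.74, 1.87, 2.47 and 1.92%, against 1.41, 1.26, 1.64 and 1.32% at dusk. The 2 sets did not overlap. Each gene was chosen for a mean higher at 10.5 h than at dusk, so a higher sum at 10.5 h follows from the choice. A single gene, OS07G0529600, made up 14.9% of the summed level at 10.5 h, and the 9 genes with the most counts made up 53.2%. CPM is not divided by transcript length, so levels of different genes are not compared here beyond their share of counts. Fewer cells of a type and less RNA per cell cannot be told apart in such bulk samples.

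**Figure D1:**
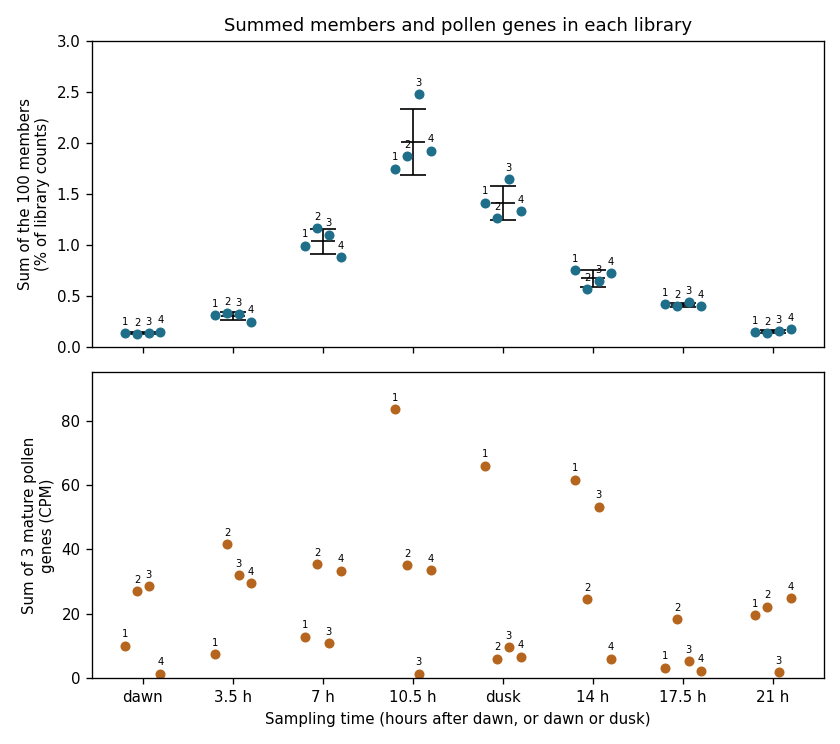
Upper plot, summed level of the 100 genes in each of the 32 libraries, as % of the library's counts, by sampling time, with replicate numbers and the mean and SD of the 4 libraries in black. Lower plot, summed CPM of the 3 mature pollen genes in the same libraries. The sum of the 100 genes was 2.00% on average at 10.5 h and 0.132% at dawn, and replicate 3 of 10.5 h combined the highest sum of the 100 genes with a pollen sum of 1.39 CPM.

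Gene by gene, the fold between the mean at 10.5 h and the lowest mean ran from 6.14 to 499 with a median of 13.6. It was at least 10-fold in 65 genes, at least 50-fold in 19 and at least 100-fold in 9. In 14 genes the lowest mean was under 1 CPM, so that a few reads set the size of the fold. Means at 10.5 h ran from 21.9 to 2979 CPM with a median of 81.9 CPM, and 4 genes stood at 1000 CPM or more. The trough fell at dawn in 68 genes, at 21 h in 17, at 3.5 h in 13 and at 17.5 h in 2, OS01G0837600 and OS04G0223500.

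Levels stayed closest to those of 10.5 h at dusk, whose distance in hours is not known. Taking each gene's mean at 10.5 h as 100%, the median gene stood at 8.50% at dawn, 16.1% at 3.5 h and 56.6% at 7 h. It stood at 77.0% at dusk, 40.9% at 14 h, 28.3% at 17.5 h and 9.79% at 21 h. Dusk was the second highest time in 68 genes, 7 h in 29, 3.5 h in 2 and 14 h in 1. At dusk 92 genes still held at least 50% of their mean of 10.5 h, and at 7 h 60 had reached that level. The most common course, in 36 genes, was to hold at least 50% at 7 h, 10.5 h and dusk and at no other time. A further 25 genes did so at 10.5 h and dusk alone, and 3 at 10.5 h alone. At the trough end, 63 genes stood under 10% at dawn and 51 at 21 h. The 13 genes lowest at 3.5 h came up late, with a median of 19.9% at 7 h, against 62.4% in the 68 genes lowest at dawn.

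**Figure D2:**
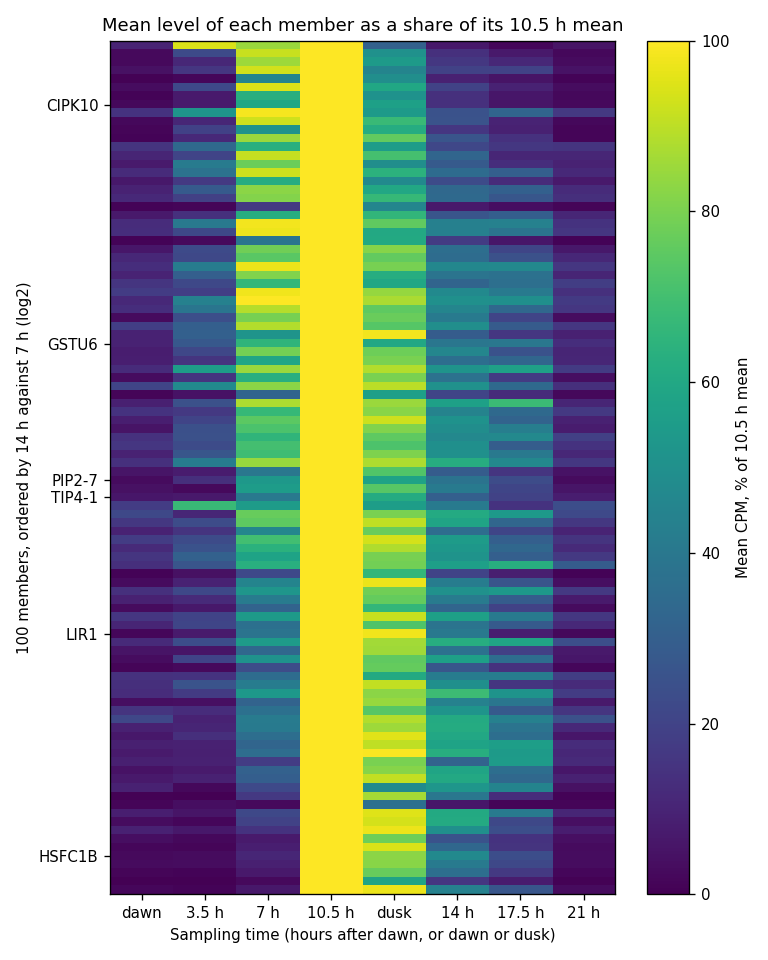
Mean CPM of each of the 100 genes at the 8 times (columns) as % of its mean at 10.5 h, which is 100% by construction. Genes (rows) are ordered by their log2 difference between 14 h and 7 h, from lowest at the top to highest at the bottom, and the 6 genes with a name are marked. The median over rows is 56.6% at 7 h, 77.0% at dusk and 40.9% at 14 h.

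The time means hide how close 10.5 h and its neighbours were in many genes. Libraries of 10.5 h and dusk overlapped in all but 29 of the 100 genes, and those of 10.5 h and 7 h in all but 55. The levels at 10.5 h also chose these genes, and no share over all genes is given for these counts. They describe the 100 genes only and were not tested. The 4 libraries of 10.5 h lay above all other libraries in 14 of the 100 genes, which is part of the pattern by which they were chosen. Of all 14622 genes with a mean of at least 10 CPM, 22 (0.15%) did so, and nothing is read from that comparison. Those 14 included OS04G0675400, OS07G0529600, OS03G0265900, OS03G0586500, OS08G0508500, CIPK10, OS12G0493900 and OS01G0822800 among the first 20 ranks. In the other first-ranked genes the highest dusk or 7 h library reached into the range of 10.5 h.

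The gene with the widest range was OS04G0675400, for which the files give no name. It stood at 358, 438, 583 and 347 CPM in replicates 1 to 4 of 10.5 h and at 0.722, 0.775, 0.400 and 1.56 CPM at dawn, where the 4 libraries held 16, 9, 10 and 18 reads. At 7 h it was still at 8.43, 13.5, 8.93 and 11.4 CPM, so most of its climb fell between 7 and 10.5 h. At dusk it stood at 237, 215, 311 and 247 CPM, and at 14 h at 59.7, 58.9, 72.5 and 84.1 CPM. Its libraries at 14 h lay below all of dusk and above all of 7 h.

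OS07G0529600 took the largest share of counts. It stood at 2494, 2439, 3871 and 3112 CPM at 10.5 h, a mean of 2979 ± 668 CPM (SD, n = 4). It had climbed earlier than OS04G0675400, from 38.3, 53.7, 43.8 and 56.2 CPM at 3.5 h to 1150, 1517, 1597 and 1147 CPM at 7 h. It then went from 1335, 1044, 1786 and 1706 CPM at dusk to 317, 197, 214 and 385 CPM at 14 h. The libraries of 3.5 and 7 h did not overlap, nor did those of dusk and 14 h, and the libraries of 10.5 h lay above all others.

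OS01G0702000 was a late riser. It stood at 15.8, 23.3, 23.3 and 24.0 CPM at 7 h and at 239, 309, 401 and 358 CPM at 10.5 h. Dusk, at 301, 276, 354 and 335 CPM, overlapped with 10.5 h. At 14 h it was still at 143, 97.4, 137 and 195 CPM, above every library of 7 h and below every library of dusk.

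OS03G0265900 and OS03G0586500 followed a course more like that of OS07G0529600. OS03G0265900 stood at 5.83, 8.67, 11.1 and 4.75 CPM at 3.5 h, then at 97.3, 154, 103 and 89.4 CPM at 7 h, and then at 265, 248, 344 and 284 CPM at 10.5 h. It was at 182, 163, 182 and 166 CPM at dusk and 64.3, 34.5, 42.7 and 58.0 CPM at 14 h. OS03G0586500 stood at 178, 248, 198 and 209 CPM at 7 h, then at 527, 603, 796 and 668 CPM at 10.5 h, and then at 355, 350, 361 and 398 CPM at dusk. In both genes the libraries of 7 h, 10.5 h and dusk formed 3 separate ranges, with 10.5 h on top.

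OS01G0303000, at rank 12 and 1376 ± 340 CPM at 10.5 h (SD, n = 4), was already near its top at 7 h. Its libraries stood at 1120, 1586, 1088 and 894 CPM at 7 h and at 1134, 1160, 1866 and 1343 CPM at 10.5 h, and these overlapped. By 14 h they were at 297, 169, 197 and 227 CPM, below all of both. OS11G0167800, chosen after its values were seen because it held the second largest share of counts, was at 1691 ± 190 CPM at 10.5 h and 261 ± 36.9 CPM at dawn (SD, n = 4 each). It stood at rank 86, since its trough was high.

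The other genes of the first 20 ranks split in the same ways. OS03G0184100 (rank 10), OS02G0774100 (rank 11) and OS06G0474800 (rank 14) were late risers. OS03G0184100 stood at 24.7, 28.0, 21.4 and 28.3 CPM at 7 h, at 339, 381, 422 and 305 CPM at 10.5 h and at 88.5, 92.5, 90.8 and 92.8 CPM at 14 h, in 3 separate ranges. OS06G0474800 stood at 3.47, 8.75, 10.9 and 3.14 CPM at 7 h and at 21.0, 38.3, 62.9 and 37.3 CPM at 10.5 h, and its mean of 0.129 CPM at 3.5 h makes its 309-fold range rest on very few reads. OS10G0533100 (rank 8) and OS01G0872100 (rank 9) lay between, at 28.2, 41.7, 27.6 and 20.0 CPM and at 15.1, 19.6, 21.9 and 9.03 CPM at 7 h. Their means at 10.5 h were 126 ± 31.8 and 74.5 ± 18.6 CPM (SD, n = 4 each). OS06G0476200 (rank 13), OS08G0425200 (rank 19) and OS01G0822800 (rank 20) had climbed by 7 h. OS06G0476200 stood at 36.3, 57.7, 59.0 and 45.3 CPM at 7 h and at 45.1, 48.1, 84.4 and 55.8 CPM at 10.5 h, which overlapped. OS08G0425200 stood at 2.97, 3.13, 2.32 and 2.98 CPM at 3.5 h, then at 51.7, 66.6, 59.7 and 60.1 CPM at 7 h, and then at 82.1, 99.1, 131 and 119 CPM at 10.5 h. OS01G0822800 stood at 18.4, 30.3, 26.3 and 20.2 CPM at 7 h and at 31.7, 33.9, 45.0 and 41.6 CPM at 10.5 h, and in both genes these times did not overlap.

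A name is given here to 6 of the 100 genes. The names were attached from general knowledge of rice genes and checked against a reference gene table, where each symbol had to stand on the identifier's chromosome at a matching place in the order. The other 94 are given by identifier, with no role.

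LIR1 (OS01G0102900), a light-regulated chloroplast protein that tethers ferredoxin-NADP+ reductase, an enzyme of photosynthetic electron transfer, to the thylakoid membrane, had its highest levels at 10.5 h and dusk alike. It stood at 817, 1052, 1507 and 888 CPM at 10.5 h and at 795, 1011, 1482 and 888 CPM at dusk, and these 2 times overlapped almost completely. It had been at 72.8, 78.9, 113 and 39.6 CPM at 3.5 h and 420, 438, 517 and 265 CPM at 7 h. The rise from 3.5 to 7 h measured 2.27 on the log2 scale (SE 0.37) and passed the test (edgeR quasi-likelihood, Benjamini-Hochberg adjusted p = 1.9e-04, 4 of 4 libraries above). At 14 h it stood at 560, 293, 424 and 451 CPM, below every dusk library, but the difference of -1.21 (SE 0.36) did not pass in edgeR (adjusted p = 0.164), while it passed in limma (adjusted p = 0.0466).

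2 aquaporins, the channels that let water cross membranes, were among the members. PIP2-7 (OS09G0541000), of the plasma membrane, stood at 842, 483, 728 and 635 CPM at 10.5 h and at 252, 637, 313 and 236 CPM at 7 h, where replicate 2 reached into the range of 10.5 h. At 3.5 h it was at 150, 86.8, 72.6 and 50.7 CPM, and the rise to 7 h measured 1.86 (log2, SE 0.44, edgeR adjusted p = 0.00717, 4 of 4 libraries above). TIP4-1 (OS05G0231700), of the vacuolar membrane, stood at 290, 305, 407 and 187 CPM at 10.5 h and at 17.5, 17.0, 18.9 and 18.4 CPM at dawn. It rose from 19.4, 21.0, 24.8 and 17.2 CPM at 3.5 h to 141, 121, 166 and 54.8 CPM at 7 h, by 2.40 (log2, SE 0.31, edgeR adjusted p = 9.5e-06). Replicate 4 was the lowest of the 4 at both 7 and 10.5 h.

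The 6 other plasma membrane aquaporins on the list used here followed another course, and any not listed were not examined. Of the 7 on the list (PIP1-1, PIP1-2, PIP1-3, PIP2-1, PIP2-2, PIP2-4 and PIP2-7), PIP2-7 alone was highest at 10.5 h, and the other 6 were highest at 3.5 h. Between 3.5 and 7 h, PIP2-7 rose while 5 of the other 6 fell in the edgeR test. PIP1-2 (OS04G0559700) went from 1780 ± 178 to 931 ± 253 CPM (SD, n = 4 each), a fall of 1.07 on the log2 scale (SE 0.21, edgeR adjusted p = 0.00187). PIP1-3 (OS02G0823100) did not pass, with a difference of -0.50 (SE 0.39, edgeR adjusted p = 0.509). From 3.5 to 17.5 h all 6 fell, and PIP2-7 differed by 0.49 (SE 0.42), which did not pass in edgeR (adjusted p = 0.399). Reads of such related genes can be shared or split in counting, so the level of each is uncertain.

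CIPK10 (OS03G0339900), a protein kinase that acts with calcineurin B-like calcium sensors, had replicates close to one another at 10.5 h. It stood at 188, 164, 182 and 167 CPM at 10.5 h, above every other library. It rose from 12.5, 14.3, 12.0 and 12.1 CPM at 3.5 h to 101, 114, 107 and 95.8 CPM at 7 h, by 2.90 (log2, SE 0.24, edgeR adjusted p = 8.5e-09). From dusk, at 126, 92.4, 99.1 and 79.8 CPM, it fell to 28.8, 20.1, 18.5 and 30.5 CPM at 14 h, by 2.01 on the log2 scale (SE 0.23, edgeR adjusted p = 7.7e-06). Both changes separated all libraries of the times compared.

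HSFC1B (OS01G0733200), a class C heat shock transcription factor, was a late riser. It stood at 4.72, 3.46, 2.35 and 2.23 CPM at 7 h and at 27.8, 31.5, 37.3 and 21.0 CPM at 10.5 h. At dusk, at 19.1, 26.3, 31.1 and 20.7 CPM, it overlapped with 10.5 h, and at 14 h it was at 12.7, 11.5, 13.2 and 18.5 CPM. It was higher at 14 h than at 7 h by 2.03 (log2, SE 0.24, edgeR adjusted p = 4.7e-07), with all 4 libraries of 14 h above all 4 of 7 h.

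GSTU6 (OS10G0530900), a tau-class glutathione S-transferase, an enzyme family that conjugates glutathione to reactive compounds, was an early riser. It stood at 118, 71.3, 77.0 and 63.9 CPM at 7 h and at 112, 136, 139 and 116 CPM at 10.5 h, which overlapped in replicate 1. Its rise from 34.0, 43.1, 29.1 and 32.1 CPM at 3.5 h measured 1.13 (log2, SE 0.26, edgeR adjusted p = 0.00604). At 14 h, at 34.1, 42.7, 53.1 and 67.0 CPM, it differed from 7 h by -0.85 (log2, SE 0.26, edgeR adjusted p = 0.0223), and replicate 4 of 14 h overlapped with the lowest library of 7 h. This call was lost in 5 of 40 alternative fits, with the library total alone, with limma and without replicate 1 of 7 h, replicate 1 of 14 h or replicate 2 of 14 h (highest adjusted p 0.146).

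**Figure D3:**
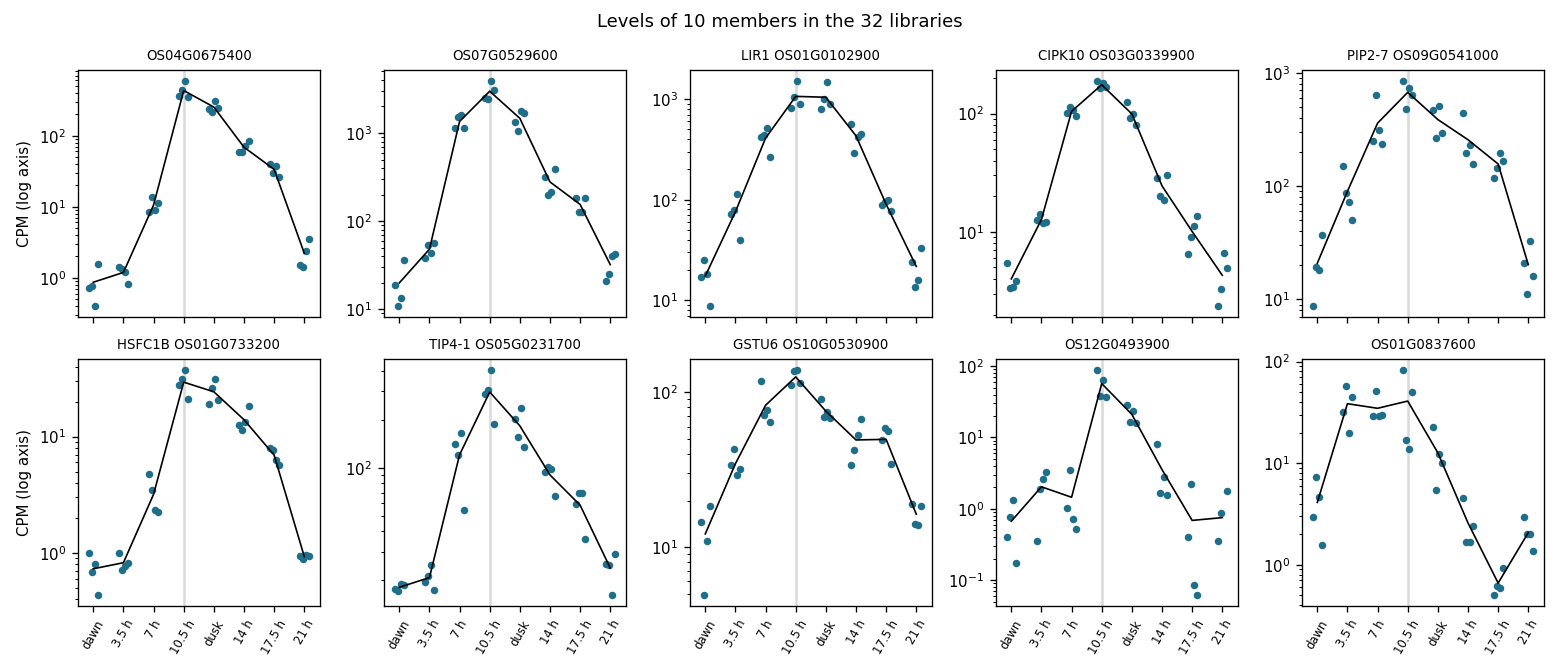
CPM (log axis) of 10 of the 100 genes in the 32 libraries by sampling time, 1 point per library, with a line through the time means and a grey line at 10.5 h. A library of 21 h with 0 counts of OS12G0493900 is not drawn. OS04G0675400 and HSFC1B were still low at 7 h, while OS07G0529600, CIPK10 and GSTU6 had climbed by then, and the 4 libraries of OS01G0837600 at 10.5 h are spread from 13.8 to 82.2 CPM.

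The first comparison asked how the genes came up in the morning, from 3.5 to 7 h. By the rule the means of both times had to lie below that of 10.5 h. Genes chosen for a top at 10.5 h and a wide range can be expected to climb before it. Most of all genes were not chosen so, and the counts below follow in part from the choice. They hold for the 87 genes whose lowest time was neither 3.5 nor 7 h. Of these, 74 rose and none fell in the edgeR quasi-likelihood test (adjusted p under 0.05). Among all 25766 genes tested, 5.29% rose and 3.33% fell. With DESeq2 size factors the rises among all genes were 1147 and the falls 1099 instead of 1364 and 857, and with the library total alone 1570 and 593, while 72 and 78 of the 87 genes rose and none fell. The median log2 difference was 1.56 in the 87 genes and 0.02 over all genes, and 84 of the 87 were above 0. In 80 genes all 4 libraries of 7 h lay above all 4 of 3.5 h, where 15.5% of all genes were separated in either direction. The largest rises were those of OS07G0529600 (4.69, SE 0.30, edgeR adjusted p = 6.5e-11), OS03G0265900 (3.71, SE 0.31, edgeR adjusted p = 1e-08) and OS08G0508500 (3.67, SE 0.45, edgeR adjusted p = 3.8e-06). OS08G0508500 went from 0.583, 1.14, 0.193 and 0.814 CPM at 3.5 h to 6.87, 10.8, 7.22 and 10.9 CPM at 7 h. The 13 genes set apart were those lowest at 3.5 h, with a median of 2.76.

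OS12G0493900, at rank 17, stood out from this morning rise, with a log2 difference of -0.57 between 7 and 3.5 h (SE 0.81, edgeR adjusted p = 0.742). It was at 0.350, 1.92, 2.61 and 3.26 CPM at 3.5 h and 1.02, 3.54, 0.722 and 0.524 CPM at 7 h. At 10.5 h it stood at 87.9, 38.5, 64.7 and 37.0 CPM, and at dusk at 28.7, 16.4, 23.3 and 15.9 CPM. At 14 h it was back at 8.14, 1.68, 2.78 and 1.58 CPM, so that high levels were seen at 10.5 h and dusk. It was listed with 0 counts in replicate 3 of 21 h, where 3 counts would stand for 0.259 CPM.

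After dusk the genes came down, which again follows in part from the choice of genes with a top at 10.5 h. Between dusk and 14 h, 39 of the 100 genes fell and none rose in the edgeR test, while 0.59% of all genes fell and 0.0349% rose. The median log2 difference was -0.84, against -0.03 over all genes, and 99 of the 100 were below 0. In 77 genes all libraries of 14 h lay below all of dusk, where 4.67% of all genes were separated in either direction. The deepest falls were those of OS08G0508500, OS07G0529600 and CIPK10, of -2.72 (SE 0.40, edgeR adjusted p = 2.6e-04), -2.36 (SE 0.27, edgeR adjusted p = 5.4e-06) and -2.01 (SE 0.23). The call of OS08G0508500 was lost with the 8 libraries of the 2 times alone (edgeR adjusted p = 0.061). It went from 32.9, 17.5, 24.0 and 25.2 CPM at dusk to 5.97, 1.54, 3.33 and 3.72 CPM at 14 h. The number that fell was 21 without replicate 2 of 14 h and 10 when the 8 libraries of the 2 times were fitted alone, and no such fit put a gene on the other side.

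**Figure D4:**
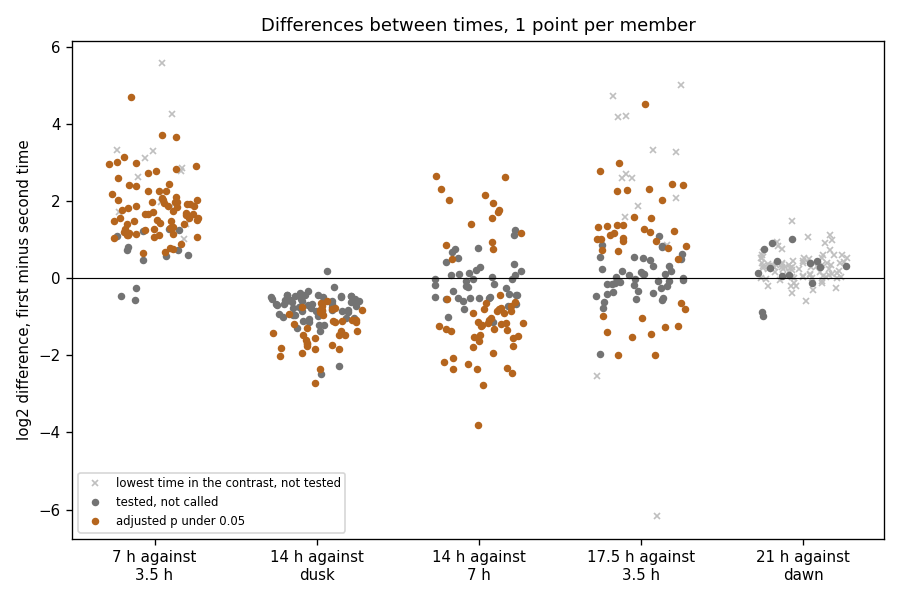
Log2 difference of each of the 100 genes between 2 times, first minus second, for 5 comparisons that do not use 10.5 h. Coloured points passed the edgeR test, grey points did not, and crosses are genes whose lowest time is 1 of the 2, which were not tested. Of the tested genes, 74 of 87 rose from 3.5 to 7 h, and 39 of 100 fell from dusk to 14 h.

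Next, 14 h was compared with 7 h, which by the labelled hours lie 3.5 h after and before 10.5 h. Here 43 of the 100 genes were lower and 15 higher at 14 h in the edgeR test, against 9.41% lower and 6.63% higher among all genes. The median log2 difference was -0.52, and close to 0 over all genes. With the library total as the only scaling, 16 of the 100 genes were higher and 39 lower, beside 2168 higher and 1802 lower among all genes instead of 1709 and 2425. No gene was set apart here, since none was lowest at 7 or 14 h.

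The 15 genes higher at 14 h stood at a median of 14.5% of their mean of 10.5 h at 7 h and 88.3% at dusk. Since 14 h against 7 h made the split, a low share at 7 h follows in part from it. These 15 genes are described here without a test of the group. They were led by OS01G0702000 (2.65, SE 0.23, edgeR adjusted p = 4.2e-09), OS04G0675400 (2.62, SE 0.26, edgeR adjusted p = 3.5e-08) and OS02G0774100 (2.31, SE 0.32, edgeR adjusted p = 5.5e-06). OS02G0774100 stood at 2.51, 7.04, 3.97 and 4.06 CPM at 7 h and at 32.0, 14.4, 19.5 and 25.3 CPM at 14 h, without overlap. Of the 15, 9 were lowest at 3.5 h and 6 at dawn. OS03G0679700, at rank 7, was among them, with a difference of 1.57 (SE 0.23, edgeR adjusted p = 1e-05). It stood at 106, 166, 155 and 122 CPM at 7 h, then at 646, 585, 831 and 698 CPM at 10.5 h, then at 732, 551, 635 and 666 CPM at dusk and 563, 318, 386 and 422 CPM at 14 h.

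The 43 genes lower at 14 h stood at a median of 79.1% of their mean of 10.5 h at 7 h and 64.3% at dusk. The share at 7 h again follows in part from the split. Of the 43, 36 were lowest at dawn. Not all of them stood higher at 7 h than at dusk. OS08G0508500 was at 16.5% of its mean of 10.5 h at 7 h and 46.1% at dusk. The largest differences were those of OS01G0837600 (-3.80, SE 0.61, edgeR adjusted p = 4.6e-05), OS09G0548400 (-2.78, SE 0.34, edgeR adjusted p = 9.7e-07) and OS01G0303000 (-2.46, SE 0.30, edgeR adjusted p = 7.2e-07). OS09G0548400 stood at 23.8, 25.1, 34.7 and 18.8 CPM at 7 h, at 23.3, 22.8, 42.3 and 23.8 CPM at 10.5 h and at 4.23, 3.64, 3.74 and 4.00 CPM at 14 h. Its libraries of 7 and 10.5 h overlapped, and those of 14 h lay below both. CIPK10 (-2.17, SE 0.23, edgeR adjusted p = 1.3e-07) was also in this group, and LIR1 (0.02, SE 0.35, edgeR adjusted p = 0.982), PIP2-7 (-0.52, SE 0.42, edgeR adjusted p = 0.483) and TIP4-1 (-0.48, SE 0.30, edgeR adjusted p = 0.321) did not pass in either direction.

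Further from 10.5 h, 17.5 h was set against 3.5 h, which by the labelled hours lie 7 h to either side. Of the 85 genes whose lowest time was neither, 30 were higher and 11 lower at 17.5 h in the edgeR test, while 9.78% of all genes were higher and 10.3% lower. The median log2 difference was 0.23, and 0.03 over all genes. This background rests on the scaling. With the library total alone the median of all genes was 0.33, 6081 genes were higher and 1638 lower instead of 2521 and 2653, and 37 of the 85 genes were higher and 10 lower. The directions given here are those with TMM factors. OS04G0675400 had the largest difference (4.50, SE 0.30, edgeR adjusted p = 1.8e-11), from 1.40, 1.35, 1.19 and 0.814 CPM at 3.5 h to 40.1, 30.3, 37.9 and 26.0 CPM at 17.5 h. It was followed by OS09G0517900 (2.99, SE 0.40, edgeR adjusted p = 3.9e-06) and HSFC1B (2.77, SE 0.26, edgeR adjusted p = 1.3e-08). HSFC1B stood at 0.991, 0.711, 0.773 and 0.814 CPM at 3.5 h and at 7.97, 7.74, 6.33 and 5.70 CPM at 17.5 h. In all 3 genes every library of 17.5 h lay above every library of 3.5 h.

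Lower at 17.5 h were OS09G0548400 (-1.99, SE 0.34, edgeR adjusted p = 1.3e-04), OS08G0480200 (-1.99, SE 0.50, edgeR adjusted p = 0.00576) and OS03G0300600 (-1.52, SE 0.16, edgeR adjusted p = 9.6e-08). OS03G0300600 stood at 23.1, 24.4, 22.6 and 23.7 CPM at 3.5 h and at 10.6, 8.27, 8.27 and 13.2 CPM at 17.5 h, without overlap. Of the 15 genes higher at 14 h than at 7 h, 6 could be tested here, and all 6 were higher at 17.5 h. The other 9 were lowest at 3.5 h and were not tested. Of the 43 genes lower at 14 h than at 7 h, 42 could be tested, with 5 higher and 10 lower. Both groups were formed on these same data, so nothing is read from these counts. CIPK10 (-0.65, SE 0.23, edgeR adjusted p = 0.0485) lost its call in 27 of 40 alternative fits, and OS03G0265900 (0.83, SE 0.29, edgeR adjusted p = 0.0436) in 14.

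At the bottom of the wave, none of the 15 genes that could be tested between 21 h and dawn passed in edgeR, and none of all 25766 genes did (0.0% in each direction). At an unadjusted p under 0.05, 2 of the 15 genes and 1778 of all genes (6.90%) passed, DESeq2 called 1 of the 15 and, of all genes, 13 higher and 14 lower, and limma called none. Without replicate 4 of dawn, edgeR called 1 of the 15 genes higher, and 12 higher and 21 lower of all genes. The 15 had a median log2 difference of 0.28, and 12 of them were above 0. The 85 genes set apart were lowest at dawn or at 21 h by the rule, so their values give no comparison of these times. A p that misses the threshold does not show that the times were alike.

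The 4 libraries of 10.5 h were not alike, and this bears on which genes were chosen. Replicate 3, with a pollen sum of 1.39 CPM against 83.6, 35.2 and 33.5 CPM in replicates 1, 2 and 4, was the highest of the 4 in 72 of the 100 genes. With TMM factors it was the highest in 71. Replicate 1 was the lowest in 56. It had the highest pollen sum and a tapetum sum of 12.5 CPM against 5.28 to 7.66 CPM in the others. That tapetum sum was high through EAT1 alone, at 7.63 CPM against 0.253 to 1.71 CPM in the others. In replicates 1 to 4, CYP703A3 stood at 2.72, 3.00, 1.82 and 2.90 CPM and UDT1 at 2.19, 1.96, 3.21 and 3.05 CPM. Set against each gene's mean of 10.5 h, the median gene of the 100 stood at 85.6, 97.0, 122 and 94.5% in replicates 1 to 4. Over all genes with a mean of at least 10 CPM, replicate 3 was the highest in 38.7%, and in the other 620 candidates in 51.0%. The median coefficient of variation at 10.5 h was 20.1% in the 100 genes and 16.4% in all genes with that mean.

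Leaving out a library changed the choice unequally. Without replicate 3 of 10.5 h, 78 of the 100 genes still had their highest mean at 10.5 h, 11 were highest at dusk and 11 at 7 h. Of the 100, 40 stayed among the first 100 of 1042 candidates then. Without replicate 1, 2 or 4, 90, 91 and 91 stayed. Over all 100 genes, the median log2 ratio of 10.5 h to the lowest time went from 3.45 to 3.36 without replicate 3. The comparisons between the other times use no mean of 10.5 h, and the 100 genes were not chosen again for the fits that follow. Leaving out a library of 10.5 h could there change only the scaling, the filter and the shared estimate of spread. The counts therefore cannot show what that library did through the choice. With replicate 3 of 10.5 h left out of the fit, 74 of 87 genes rose from 3.5 to 7 h, 37 of 100 fell from dusk to 14 h, and 14 were higher and 43 lower at 14 h than at 7 h. Without that library, replicate 4 of dawn and replicate 3 of 21 h together, these counts were 77, 45, 16 and 49.

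**Figure D5:**
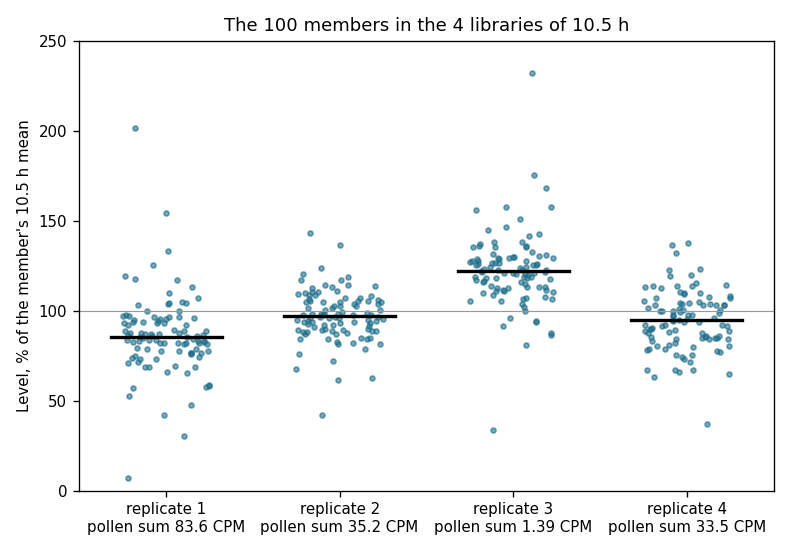
Level of each of the 100 genes in the 4 libraries of 10.5 h, as % of the gene's mean of 10.5 h, with the median in black and the pollen sum of each library under it. The medians are 85.6, 97.0, 122 and 94.5%, and single genes run from 7.17 to 232%.

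A few genes had 10.5 h libraries that stood far apart, and these were picked after their values were seen. OS10G0570700 was at 2.19, 37.8, 71.1 and 11.4 CPM at 10.5 h, a coefficient of variation of 101%, with replicate 1 lowest. At dusk it was at 3.48, 20.5, 17.7 and 16.9 CPM and at 14 h at 2.82, 25.2, 18.3 and 18.2 CPM, again with replicate 1 lowest. OS10G0136500 was likewise low in replicate 1, at 7.94, 30.4, 45.7 and 20.2 CPM at 10.5 h and 6.32, 28.3, 23.1 and 25.7 CPM at dusk. The replicate 1 libraries of 10.5 h, dusk and 14 h had the highest pollen sums of their times, at 83.6, 66.1 and 61.7 CPM, and the part of pollen in these values was not tested.

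OS01G0837600, by contrast, was high in replicate 1. It stood at 82.2, 17.1, 13.8 and 50.2 CPM at 10.5 h, and its place at that time rests on replicates 1 and 4. It was at 32.1, 57.6, 19.6 and 44.5 CPM at 3.5 h and 29.2, 50.8, 29.0 and 29.7 CPM at 7 h, so 3 times overlapped. It then stood at 22.9, 5.40, 12.3 and 9.94 CPM at dusk and 0.505, 0.616, 0.591 and 0.930 CPM at 17.5 h. OS04G0223500, the other gene lowest at 17.5 h, was at 259, 206, 178 and 236 CPM at 10.5 h and at 83.3, 174, 280 and 57.7 CPM at 3.5 h, again with overlap. OS08G0480200 stood at 98.2, 77.0, 76.8 and 77.0 CPM at 10.5 h and at 74.2, 63.3, 57.1 and 60.7 CPM at 7 h, without overlap.

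The edge of the choice was not a gap. The last genes inside were OS01G0323300 and OS02G0507400, with log2 ratios of 2.57 and 2.56, and the first outside were OS03G0856500 and OS11G0648000, with 2.55 and 2.54. OS02G0507400 stood at 129 ± 19.3 CPM at 10.5 h and OS03G0856500 at 112 ± 24.1 CPM (SD, n = 4 each).

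By the same rule applied at the neighbouring times, the first 100 genes of 7 h had a median log2 ratio of highest to lowest of 3.02, and those of dusk 1.77, against 3.45 here. At least 4 of the 8 times reached 50% of the highest mean in 14 of the first 100 genes of 7 h, in 77 of those of dusk and in 22 here. Genes were left out by name at 10.5 h only, so the 3 sets are not wholly alike. These values follow from the choice and were not tested.

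On the chromosomes, 20 of the 100 genes had identifiers of chromosome 1, 16 of chromosome 3 and 12 of chromosome 8. Of all genes with a mean of at least 10 CPM, 14.3, 14.6 and 6.38% did. In 7 cases 2 of the 100 genes lay within 10 identifiers of each other, such as OS03G0586400 and OS03G0586500, which are next to each other in the table, at 32.2 and 649 CPM at 10.5 h. These neighbours differed in course. OS03G0586400 was lowest at 3.5 h and stood at 51.8% of its mean of 10.5 h at 14 h, and OS03G0586500 was lowest at dawn and stood at 20.7%. OS09G0400000 and OS09G0400300 were at 123 and 127 CPM at 10.5 h, both lowest at dawn and both already high at 7 h, at 97.0 and 84.6% of the mean of 10.5 h.

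Of all 14622 genes with a mean of at least 10 CPM, 1100 were highest at 10.5 h. Of 14 core clock genes 5 were. Of these, 4 were left out by the rule, and PRR59, whose name no table checked, was a candidate below the first 100. Of the 14, 6 rose and 1 fell from 3.5 to 7 h, and 8 fell and none rose from dusk to 14 h in the edgeR test. Of all genes, 5.29% rose and 3.33% fell in the first and 0.59% fell and 0.0349% rose in the second. Of 12 starch and sugar genes 2 were highest at 10.5 h, of 8 jasmonate repressor genes 1 and of 3 catalase genes 1. Of the 3 mature pollen genes 2 and of the 3 tapetum genes 1 were highest at 10.5 h. None of the 5 PIF-like, 6 photoreceptor, 11 photoperiod and flowering, 5 gibberellin and 5 abscisic acid genes was. Some lists also count genes with a mean under 10 CPM, so their shares are unlike that of the 14622 genes. Of the pollen genes 1, of the tapetum genes 0 and of the photoperiod and flowering genes 4 reached that mean. In replicates 1 to 4 of 10.5 h MADS63 stood at 22.4, 1.76, 0.211 and 3.42 CPM, and EAT1 at 7.63, 0.326, 0.253 and 1.71 CPM. Replicate 1 was far the highest in both.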

How the data were processed

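Panicle RNA of 32 samples, 4 at each of 8 times, was measured. The submitters' processing notes name the genome build IRGSP-1.0, HTSeq 0.6.0 and TopHat2 (version 2), in no stated order. What strand setting and which annotation release were used is not given in the sources used here. Whole-number counts per gene and a CPM table were deposited by the authors. The deposited CPM equalled the count over the library total to within 5e-07, with no other scaling, and these CPM chose the genes and give the levels in the text. All 32 sample columns of both tables were used, with groups and replicate numbers from the sample labels.

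The counts went into the edgeR 4.0.16 quasi-likelihood test (R 4.3.3) with TMM factors and 1 mean per time. The filterByExpr filter left 25766 genes, over all of which p-values were adjusted by Benjamini-Hochberg, with a threshold of 0.05. All 100 genes passed that filter. The standard error of a log2 difference was computed back from the F value. The script was tested on simulated data. Genes whose lowest time is in a comparison were not tested there. The 5 comparisons are 7 h with 3.5 h, 14 h with dusk, 14 h with 7 h, 17.5 h with 3.5 h and 21 h with dawn. Alternatives were DESeq2 1.42.0, limma 3.58.1 on log2(CPM + 1), 2 other scalings, no filter, the 8 libraries of 2 times alone, a replicate block, each library left out and, for the choice of genes, other minima and pseudocounts (0.1 and 5 CPM). Leaving out the 3 libraries of lowest correlation was chosen after seeing the data.

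The genes named are the first 20 ranks, the 6 with a name, the 3 largest rises and falls of each comparison and the genes at the edge of the choice, plus those said to be picked on their values (OS04G0223500, OS10G0570700, OS10G0136500 and OS11G0167800). The 100 genes and the lists were chosen with earlier results of these data known. The files pair identifiers with no names. Symbols come from general knowledge of rice genes and, for the 6, stand in the RefSeq gene table of ASM3414082v1 on the chromosome and in the order of the identifier. No sequences were used here. Libraries of 10.8 to 43.9 M counts make 3 counts worth 0.0684 to 0.279 CPM, which covers counting error only. Reads of near-identical or overlapping genes can be split in counting, and the build is of a japonica rice while the plants were indica.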

Additional observations from a re-analysis of the deposited data

Results flagged for a closer look

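A library apart from the other 3 of its time was sought by its gap to the nearest library, as a share of the range. This was done in the first 6 ranks, the genes with a name and the pollen and tapetum sums. It was also done in OS03G0679700, OS08G0480200, OS09G0548400, OS12G0493900, OS01G0837600, OS04G0223500 and OS10G0570700. Other genes given by library were not checked in this way. Of the 168 groups of 4 checked, 12 passed the 95% limit, and chance flags about 1 in 20 groups.

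At 10.5 h, OS08G0480200 stood at 98.2 CPM in replicate 1, with the others between 76.8 and 77.0 CPM, and OS09G0548400 at 42.3 CPM in replicate 3, with the next at 23.8 CPM. At 7 h, OS01G0702000 was low in replicate 1 (15.8 CPM, the next 23.3 CPM). At the same time OS12G0493900 (3.54 CPM, the next 1.02 CPM) and OS01G0837600 (50.8 CPM, the next 29.7 CPM) were high in replicate 2.

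At dusk, replicate 1 was high in OS04G0223500 (216 CPM, in a mean of 122 CPM) and OS08G0480200 (63.5 CPM, the next 34.7 CPM). The same library had the highest mature pollen sum of its time, 66.1 CPM against 6.14 to 9.72 CPM in the other 3. The part of pollen in the values of the 2 genes was not tested.

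Later in the night, OS12G0493900 was high in replicate 2 of 17.5 h (2.20 CPM, the next 0.404 CPM). At 21 h, OS03G0586500 was high in replicate 4 (24.4 CPM, the next 11.4 CPM) and OS10G0570700 in replicate 3 (3.02 CPM, the next 1.06 CPM). HSFC1B was low in replicate 2 of 21 h (0.879 CPM, the next 0.943 CPM), where the 4 libraries held 16, 11, 11 and 16 reads.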

How the results depend on the processing

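The counts among the 100 genes, which were not chosen again for these fits, kept their direction in every alternative run. Across fits that each left out 1 library, between 69 and 76 genes rose from 3.5 to 7 h and none fell, 21 (without replicate 2 of 14 h) to 44 fell from dusk to 14 h and none rose, 12 to 16 were higher and 36 to 47 lower at 14 h than at 7 h, 21 to 32 were higher and 8 to 13 lower at 17.5 h than at 3.5 h, and 0 to 1 were higher and 0 lower at 21 h than at dawn. Over all genes these ranges were 756 to 1526 rises and 410 to 1139 falls from 3.5 to 7 h, 3 to 24 and 79 to 183 for 14 h against dusk, 1155 to 1872 and 1834 to 2603 for 14 h against 7 h, 1538 to 2892 and 1793 to 3132 for 17.5 h against 3.5 h, and 0 to 12 and 0 to 21 for 21 h against dawn. With the library total alone, 17.5 h against 3.5 h gave 6081 higher and 1638 lower genes and 14 h against dusk 18 higher genes, and limma gave 6685, 1691 and 21. The median log2 difference of all genes was 0.33 (17.5 h against 3.5 h) and 0.14 (7 h against 3.5 h) without scaling factors and 0.28 and 0.12 with limma, against 0.03 and 0.02 with TMM factors. For 21 h against dawn, DESeq2 called 1 of the 15 genes tested higher, and 13 higher and 14 lower of all genes. Of all genes it called 59 higher and 268 lower for 14 h against dusk and 1547 lower for 7 h against 3.5 h. With the 8 libraries of the 2 times alone, 14 h against dusk gave 10 of the 100 genes lower and 4 higher and 44 lower of all genes, and 7 h against 3.5 h gave 758 higher genes. Without the 3 libraries of lowest correlation, 21 h against dawn gave 3 higher and 5 lower genes and 14 h against dusk 31 higher. Whether replicate numbers pair the samples was not settled, and the main fit did not use them. Of 112 pairs of the same number at different times, 53 had a correlation over 0.1. The median correlation was 0.046 for the same number and 0.024 for different numbers, and 12 of 32 libraries correlated best with their own number. With a replicate block, 75 of the 87 genes tested rose from 3.5 to 7 h and 43 of 100 fell from dusk to 14 h. Of the 100, 16 were higher and 44 lower at 14 h than at 7 h. Of all genes, 15 were higher at 14 h than at dusk with that block. The choice of the 100 genes moved more, with 53 kept at a minimum of 30 CPM, 14 where 10.5 h had to lie above every other library, 46 without the 3 libraries of lowest correlation and 40 to 91 when 1 library of 10.5 h was left out. It kept 98 and 85 with pseudocounts of 0.1 and 5 CPM, 95 with TMM factors and 78 at a minimum of 1 CPM. The cause of these differences was not tested. Of 92 values of single genes with a test, 69 kept their side of the threshold in every alternative fit that gave a value (40, or 39 for OS06G0474800 at 21 h against dawn), 15 lost it in some, 8 gained it in some and none changed sign with a call. Low genes are limited by depth, since 3 counts stand for up to 0.279 CPM.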
